A study of Mus musculus with 13 samples.

Results

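Pou4f1, Pou4f2, Pou4f3 and Isl1 are transcription factors of sensory neurons, and their transcript counts were followed through the development of mouse proprioceptors, the muscle sensory neurons of the dorsal root ganglion. They were chosen by name, as the 3 Pou4f genes and Isl1, and are 4 of the 50508 genes listed in the count tables, of which 30658 had at least 1 transcript count in any well. Over the 586 neurons kept by the study, Isl1 was detected in 572 (97.6%) and Pou4f1 in 513 (87.5%). Pou4f3 was detected in 150 neurons (25.6%) and Pou4f2 in 42 (7.17%). Pou4f1 and Isl1 were lower at p0 than at e14.5, with a call for Isl1 that was lost on leaving out any of 3 of the 4 plates. Pou4f3 was concentrated in 1 cluster of neurons at e14.5, at p0 and in the adult, and Pou4f2 was near the limit of detection in every sample. The study proposes that the e14.5 cluster holds neurons other than proprioceptors. At p0 Pou4f3 was also detected in 21 of the 35 neurons of another cluster.

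Pou4f1, Pou4f2 and Pou4f3, also called Brn3a, Brn3b and Brn3c, are POU-domain proteins that bind DNA through a POU-specific domain and a homeodomain. Isl1 is a LIM-homeodomain protein, which pairs a DNA-binding homeodomain with LIM domains that bind cofactors such as Ldb proteins. In dorsal root ganglia, Pou4f1 and Isl1 are expressed by sensory neurons of most classes from the time the neurons leave the cell cycle, and together they end the programme of early neurogenesis. Pou4f2 is best known from retinal ganglion cells and Pou4f3 from hair cells of the inner ear.

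Single neurons were sorted into the wells of 96-well plates and sequenced by Plate-seq, in which each well carries its own barcode and each transcript a unique molecular identifier (UMI). At p0, p12 and in the adult (day 56), the neurons carried PV:Cre+/-;Rx3:Flp+/-;Ai65+/-, so that tdTomato marked cells that had expressed both Pvalb and Runx3 at any time up to sorting. At e14.5 they carried TrkC:tdTomato, which marks neurons that express Ntrk3 and so is not limited to proprioceptors. Reporter and stage cannot be told apart in any comparison with e14.5. Neurons came from 2 plates at e14.5 (169 neurons), 2 at p0 (55), 4 at p12 (154) and 5 in the adult (208, of which 42 were excluded from numbered clusters by the study). In all, 2 animals were used at e14.5, 6 at p0, 4 at p12 and 6 as adults. The sources used here do not say which animals a plate held, so a p-value measures the spread between plates. The study sampled its adult neurons in fewer experiments than the 5 adult plates, so these plates are not all separate preparations. Cluster numbers are those given by the authors. The clusters were found on the same neurons, with these genes among those measured, and a difference between clusters is therefore a description of how a gene is spread over them.

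A plate held 680212 to 2387288 UMIs in its kept neurons, with a median of 1348703. Neurons at e14.5 held 9669 to 13061 UMIs on average per plate, against 33828 to 59682 in the adult. At p12 replicates 1 and 2 held 52324 to 65165 UMIs per neuron and replicates 3 and 4 held 21753 to 28433. The 5 proprioceptor markers (Pvalb, Runx3, Ntrk3, Etv1 and Whrn) summed to 1668 to 1708 CPM (the UMIs of a gene per 1000000 UMIs of a neuron, averaged over neurons) per plate at e14.5, 4986 to 5060 at p0, 4076 to 4371 at p12 and 2761 to 3315 in the adult. Among 11 markers of other sensory neurons, the summed level was 52.4 to 53.0 CPM at e14.5, 709 to 783 at p0, 1852 to 3984 at p12 and 3157 to 4836 in the adult. Most of this sum was Nefh, a heavy neurofilament of large myelinated neurons, which proprioceptors also express, at 35.3 to 43.6 CPM at e14.5 and 3087 to 4764 CPM in the adult. Ret reached 27.1 to 56.6 CPM and Runx1 12.6 to 27.3 CPM in the adult, from 1.15 to 1.38 and 0 to 3.70 CPM at p0. Calca and Scn10a, which define peptidergic and nociceptive neurons, stayed at or below 15.8 and 1.12 CPM on every plate, and Mafa was at 0 on all of them. The 7 markers of satellite and Schwann cells summed to 11.3 to 22.6 CPM at e14.5, 515 to 635 at p0, 214 to 602 at p12 and 308 to 851 in the adult.

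In the GENCODE annotation of GRCm38, Pou4f1 lies on the minus strand at chr14:104461676-104467999 and Pou4f2 on the minus strand at chr8:78433010-78436645. Pou4f3 lies on the plus strand at chr18:42394539-42397249 and Isl1 on the minus strand at chr13:116298281-116309689. None of the 4 overlapped another annotated gene. Each count below is of UMIs assigned to the whole gene, and levels were compared within a gene and not between genes.

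Pou4f1 was far higher at e14.5 than at any later stage. Its mean CPM over the neurons of a plate was 1148 and 788 at e14.5 and 96.7 and 62.7 at p0. At p12 the 4 plates gave 68.9, 113, 54.1 and 31.5 CPM. The lowest e14.5 plate lay above every later plate, while p0 and p12 overlapped. The adult plates fell into 2 sets, one holding replicate 1 (313 CPM) and replicate 2 (299 CPM) and the other replicate 3 (72.5 CPM), replicate 4 (67.8 CPM) and replicate 5 (67.7 CPM). Replicates 1 and 2 lay above every p0 and p12 plate and replicates 3 to 5 lay within the range of those plates.

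Between e14.5 and p0, Pou4f1 fell by 3.58 on the log2 scale (SE 0.74, adjusted p = 0.00311, edgeR's quasi-likelihood test on sums per plate with Benjamini-Hochberg adjustment over 11939 genes, as for every adjusted p below). In that comparison 27.8% of all genes tested were called. A lower sum per plate can mean fewer neurons with the transcript or less of it in each neuron. The shares of neurons given below cannot tell these apart. A share of neurons with a UMI also falls when each neuron holds less of the transcript. The fitted p0 level was 0.0834 of that at e14.5. In the 32 well barcodes of lowest score, defined below, the level was 621 and 440 CPM at e14.5 against 75.6 and 59.0 CPM at p0, and the log2 difference was -3.01 (adjusted p = 3.85e-04). With e14.5 clusters 1 and 2 alone it was -3.63 (adjusted p = 0.00300). The comparison crosses sets of plates, since Pou4f1 depended on the well barcode on the e14.5 plates, as on adult replicates 1 and 2, and less so on the p0 plates. The lowest-scoring barcodes do not remove this, as the adult sets still differed in them, and stage and plate set cannot be told apart here.

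From p0 to p12, where 18.1% of genes were called, Pou4f1 was not called (log2 difference -0.31, SE 0.62, adjusted p = 0.776). From p12 to adult, where 14.1% of genes were called, its log2 difference was 1.35 (SE 0.49, adjusted p = 0.0771). It differed between the sets of adult plates. With adult replicates 1 and 2 alone the difference was 2.24 (adjusted p = 4.48e-04), and with replicates 3 to 5 alone it was 0.13 (adjusted p = 0.810). The comparison of adult with p0, added after the data were seen and with 34.4% of genes called, gave 1.04 (adjusted p = 0.204) over all adult plates, 1.92 (adjusted p = 0.00160) with replicates 1 and 2 alone and -0.19 (adjusted p = 0.679) with replicates 3 to 5 alone. These comparisons share their p0, p12 and adult plates.

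**Figure D1:**
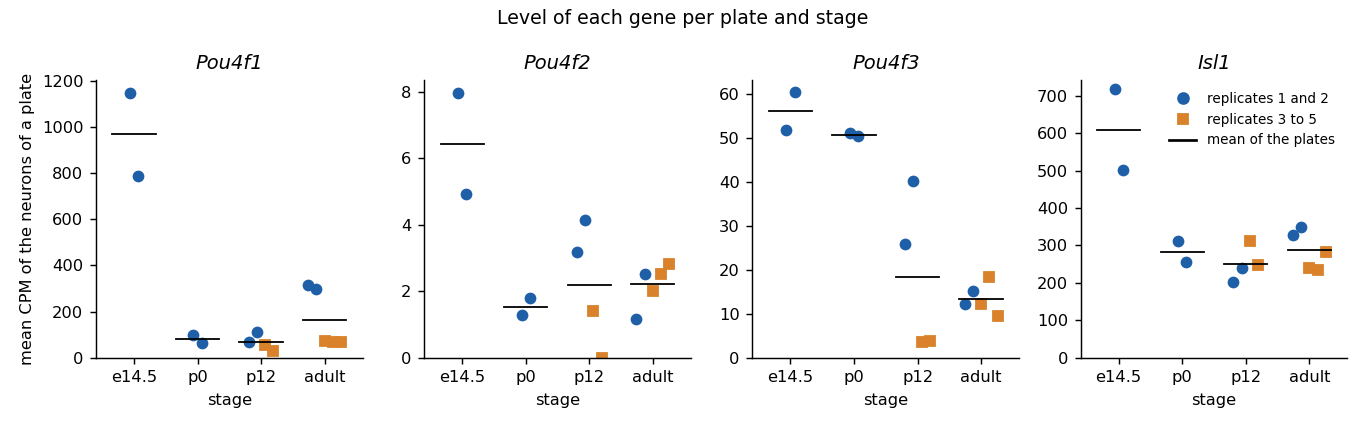
Mean CPM of Pou4f1, Pou4f2, Pou4f3 and Isl1 over the neurons of each plate (y axis, a separate linear scale for each gene) by stage (x axis), with a horizontal line at the mean of the plates. Both e14.5 plates were the highest for Pou4f1 and Isl1, the adult plates of Pou4f1 separated into replicates 1 and 2 at 299 to 313 CPM and replicates 3 to 5 at 67.7 to 72.5 CPM, and Pou4f3 separated the p12 plates into 25.8 to 40.2 CPM and 3.67 to 3.80 CPM.

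Isl1 changed over a narrower range. Its mean CPM was 717 and 502 at e14.5 and 313 and 254 at p0. The p12 plates gave 203, 240, 311 and 247 CPM, and the adult plates 327, 349, 241, 234 and 282 CPM. The e14.5 plates lay above every later plate, and the plates of the 3 later stages overlapped. Isl1 fell by 1.12 on the log2 scale from e14.5 to p0 (SE 0.27, adjusted p = 0.00793). That call did not hold without e14.5 replicate 1 (-0.84, adjusted p = 0.0938), without p0 replicate 1 (-1.20, adjusted p = 0.0510), without p0 replicate 2 (-0.98, adjusted p = 0.0889) or in the 32 lowest-scoring barcodes (-0.67, adjusted p = 0.0729), and it held without e14.5 replicate 2 (-1.31, adjusted p = 0.0162). Where 1 of the 2 plates of a stage is left out, the plate that remains is assumed to vary like those of the other stages. From p0 to p12 its log2 difference was -0.22 (SE 0.23, adjusted p = 0.555) and from p12 to adult 0.18 (SE 0.18, adjusted p = 0.543), and neither was called. Adult and p0 differed by -0.04 (SE 0.23, adjusted p = 0.903), except that in the 32 lowest-scoring barcodes the difference was -0.61 (adjusted p = 0.0342).

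Pou4f3 was lower in the adult than at p0 and split the p12 plates into 2 sets. The e14.5 plates gave 51.7 and 60.4 CPM and the p0 plates 51.0 and 50.4 CPM (log2 difference -0.24, SE 0.62, adjusted p = 0.814). The sign turned with e14.5 clusters 1 and 2 alone (1.15) and in the lowest-scoring barcodes (1.17), with no call in either. Cluster 3 held 88 of the 128 e14.5 UMIs of Pou4f3, and the study proposes that its neurons are not proprioceptors. The value of -0.24 is therefore not one of proprioceptors alone. At p12, replicates 1 and 2 gave 25.8 and 40.2 CPM, and replicates 3 and 4 gave 3.67 and 3.80 CPM. The adult plates gave 12.1, 15.1, 12.2, 18.3 and 9.54 CPM, all below the p0 plates and between the p12 sets. The 2 p12 sets also differed in depth per neuron, as given above, and in the clusters they held, since clusters 2 and 3 came from replicates 1 and 2 and clusters 1, 4 and 5 from replicates 3 and 4. The wells of at least 2000 detected genes that the study left out showed the same split at p12, at 28.7 CPM (replicate 1), 22.6 CPM (replicate 2), 7.61 CPM (replicate 3) and 7.07 CPM (replicate 4).

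From p0 to p12 the log2 difference of Pou4f3 was -1.55 (SE 0.57, adjusted p = 0.0730), and it was called with p12 replicates 3 and 4 alone (-3.33, adjusted p = 4.89e-05) and not with replicates 1 and 2 alone (-0.59, adjusted p = 0.187). From p12 to adult it was -0.23 (SE 0.50, adjusted p = 0.798). Its direction turned with the p12 set, at -1.19 (adjusted p = 0.0217) against replicates 1 and 2 and 1.56 (adjusted p = 0.00605) against replicates 3 and 4. Adult against p0, a comparison that does not use the p12 plates for its means, gave -1.78 (SE 0.52, adjusted p = 0.0157). It was no longer called on leaving out p0 replicate 1 (adjusted p = 0.0990) or p0 replicate 2 (adjusted p = 0.0789), after thinning each neuron to 7000 UMIs (-1.44, adjusted p = 0.219) or with adult replicates 1 and 2 alone (-1.66, adjusted p = 0.0781).

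Pou4f2 was present at the level of single molecules. The kept neurons held 47 UMIs of it in all, 13 at e14.5, 4 at p0, 9 at p12 and 21 in the adult. Its mean CPM was 7.97 and 4.92 at e14.5, 1.28 and 1.79 at p0, 3.18, 4.15, 1.42 and 0 at p12, and 1.17, 2.51, 2.01, 2.52 and 2.83 in the adult. No UMI was found in the 62 neurons of p12 replicate 4, a count that allows a level of up to 2.22 CPM there (3 UMIs of the total, counting error only). Pou4f2 lay below the minimum count of the stage comparison and was not tested. At e14.5 it had a UMI in 9 of the 40 neurons of clusters 3 and 4 (22.5%, exact 95% interval 10.8 to 38.5%) and in 4 of the 129 of clusters 1 and 2 (3.10%, 0.851 to 7.75%). At p12 it had one in 4 of the 17 neurons of cluster 3 (23.5%, 6.81 to 49.9%) and in 4 of the 137 of the other clusters (2.92%, 0.801 to 7.31%). In the adult it had one in 6 of the 31 neurons of cluster 5 (19.4%, 7.45 to 37.5%) and in 8 of the 135 of clusters 1 to 4 (5.93%, 2.59 to 11.3%). At p0 it had one in 1 of the 12 neurons of cluster 2 (8.33%) and in 3 of the 43 of clusters 1 and 3 (6.98%, 1.46 to 19.1%). The clusters named first at each stage are those in which Pou4f3 was highest, and no test was made of the Pou4f2 shares. After thinning to 7000 UMIs, a UMI of Pou4f2 was kept in 0 of the 31 neurons of adult cluster 5 and in 3 of the 135 of clusters 1 to 4, so that the adult order did not hold at equal depth. The thinned counts were 4 of 38 against 3 of 113 at e14.5, 2 of 17 against 2 of 135 at p12 and 0 of 12 against 0 of 43 at p0.

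The share of neurons with a UMI depends on depth, so each neuron was thinned to 7000 UMIs, which left out 18 neurons at e14.5 and 2 at p12. Pou4f1 was then found in 97.2 and 95% of neurons on the e14.5 plates, in 38.7 and 41.7% on the p0 plates and in 16.7 to 46.2% on the p12 plates. In the adult it was found in 90.4 and 88.7% of neurons of replicates 1 and 2 and in 44.2, 45.0 and 15.0% of replicates 3 to 5. Before thinning the adult shares were 90.0 to 100%. Pou4f1 then had a UMI in 166 of 169 neurons at e14.5, 48 of 55 at p0 and 99 of 154 at p12. Isl1 stayed broad after thinning, at 91.3 to 94.4% at e14.5, 79.2 to 93.5% at p0, 69.2 to 95.5% at p12 and 67.4 to 92.5% in the adult. Adult and p12 shares did not pass a two-sided exact permutation test over the 126 splits of the 9 plates, whose smallest p is 0.00794, for Pou4f1 (mean 56.7% ± 32.4 SD, n = 5, against 26.7% ± 13.6, n = 4, p = 0.198) or Isl1 (84.3% ± 10.4 against 81.2% ± 11.6, p = 0.683). For Pou4f3 (9.17% ± 5.06 against 9.94% ± 11.8) p was 0.889, and for Pou4f2 (1.88% ± 2.07 against 4.60% ± 7.33) it was 0.595, in the same exact permutation test. Shares of the other pairs of stages were not tested.

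Most neurons with Pou4f1 also held Isl1, and so did most neurons without it. Isl1 was found in 94.0, 100, 99.0 and 99% of neurons with Pou4f1 at e14.5, p0, p12 and in the adult. Without Pou4f1 the shares were 100, 100, 100 and 87.5%. At e14.5, 156 of 169 neurons held UMIs of both, 10 held Pou4f1 without Isl1, 3 held Isl1 without Pou4f1 and 0 held neither. In the adult 198 of 208 neurons held both, and at p0 48 of 55. At p12 98 of 154 held both and 55 held Isl1 without a UMI of Pou4f1. Pou4f3 was found beside Pou4f1 in 56 of the 56 e14.5 neurons that held it and in 47 of the 49 in the adult. Over all neurons Pou4f1 was found in 166 of 169 at e14.5 and 200 of 208 in the adult. Every neuron with a UMI of Pou4f3 at p0, p12 and in the adult also held Isl1, as did 55 of the 56 at e14.5. Among neurons without Pou4f3, Isl1 was found in 92.0% at e14.5, 100% at p0, 99.3% at p12 and 98.1% in the adult. The overlaps lie near these background shares and show no relation between the genes. These counts are not thinned, and a neuron of few UMIs can miss a transcript that it holds.

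In the adult, Pou4f3 was concentrated in cluster 5. Its mean CPM there was 48.3, 66.5, 64.7, 51.4 and 54.5 on replicates 1 to 5 (57.1 ± 8.10 SD, n = 5 plates). In cluster 1 it was 2.90, 3.05, 0, 1.22 and 0 CPM on the same plates. Cluster 5 lay above cluster 1 on every plate, and its lowest plate lay above the highest plate of clusters 1 to 4, which was 10.8 CPM. The 31 neurons of cluster 5, 14.9% of the adult neurons, held 102 of the 149 adult UMIs of Pou4f3 (68.5%) and 19.2% of the UMIs of all genes. Of them 25 had a UMI of Pou4f3 (80.6%, exact 95% interval 62.5 to 92.5%), against 12 of 135 (8.89%, 4.68 to 15.0%) in clusters 1 to 4. After thinning to 7000 UMIs, 11 of 31 neurons of cluster 5 had one and 0 of 135 in clusters 1 to 4, which at that depth allows a share of up to 2.22% and sets no limit on the share before thinning.

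The fit gave a log2 difference of 4.54 for Pou4f3 in cluster 5 against the mean of clusters 1 to 4 (SE 0.41, adjusted p = 4.08e-07), where 4.03% of genes were called, and 4.495 against cluster 1 (SE 0.46, adjusted p = 1.91e-06), where 4.76% were. Clusters 2 and 4 held 1 UMI of Pou4f3 each, and the first value depends on them. The call against clusters 1 to 4 held without each replicate in turn, at 4.05 without replicate 2. Without replicate 1 clusters 2 and 4 held 0 UMIs of Pou4f3, and the fitted value is then no bound. Within adult replicates 1 and 2, where 2.88% of genes were called between clusters 5 and 1, it was 3.73 (SE 0.45, adjusted p = 1.29e-04). Within replicates 3 to 5, where 4.21% were called, it was called as well (adjusted p = 7.14e-06). There cluster 1 held 1 UMI of Pou4f3, and the ratio of UMIs per UMI of all genes was 94.5 (exact interval 16.2 to 3805), against 14.1 (6.06 to 40.4) in replicates 1 and 2. The difference between the 2 sets was -2.32 on the log2 scale (unadjusted p = 0.0381, adjusted p = 1.00), in a comparison that called 0.0143% of genes. In the 32 lowest-scoring barcodes cluster 5 exceeded cluster 1 by 4.96 (adjusted p = 0.00237).

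Neurons that the study left out of the numbered adult clusters lay in between. Pou4f3 had a UMI in 12 of 42 of them (28.6%, 15.7 to 44.6%), at 3.88 to 33.6 CPM per plate. Clusters 1, 2, 3 and 4 held 7, 1, 4 and 1 UMIs of Pou4f3, and none of these 4 clusters was called against the other clusters (adjusted p from 0.538 to 0.842), in comparisons that called 5.69, 0.0271, 0.0950 and 2.73% of genes. Within replicates 3 to 5 alone, cluster 1, with 1 UMI, was called lower than the mean of clusters 3 and 5 (adjusted p = 0.0253). That comparison called 4.24% of genes, and its mean includes cluster 5, at 64.7, 51.4 and 54.5 CPM on these plates. Cluster 3 held 4 UMIs.

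At p0 Pou4f3 was highest in cluster 2, a group of 12 neurons. Its mean CPM of Pou4f3 was 138 and 158 on replicates 1 and 2, against 30.9 and 26.2 in cluster 1 and 0 and 6.57 in cluster 3. Both plates of cluster 2 lay above both plates of each other cluster. It held 89 of the 136 p0 UMIs of Pou4f3 (65.4%) in 21.8% of the neurons. It had a UMI in 8 of the 12 neurons of cluster 2, 21 of the 35 of cluster 1 and 1 of the 8 of cluster 3. The log2 difference between cluster 2 and clusters 1 and 3 was 3.6 (SE 0.38, adjusted p = 3.35e-05), where 1.21% of genes were called. It gives cluster 3, with 1 UMI of Pou4f3 in 8 neurons, the same weight as cluster 1, with 46 UMIs in 35 neurons, and its size depends on that UMI. Against cluster 1 the means over plates were 148 and 28.6 CPM. Leaving out 1 plate gave 2.94 without replicate 1, and a fitted value of 5.66 without replicate 2, where cluster 3 is at 0 UMIs and the value is no bound. No test was possible in either. Cluster 3 also stood apart in its satellite and Schwann cell markers, at 3250 and 3293 CPM against 102 to 111 CPM in clusters 1 and 2, and their part in the result was not tested. Of the 12 neurons of cluster 2, 8 lay in the 32 lowest-scoring barcodes and 0 in the 32 highest, and within the lowest-scoring barcodes the difference was 3.81 (adjusted p = 2.33e-06). In the 32 middle barcodes, cluster 2 had 55.7 and 0 CPM, from 2 neurons on each plate, against 20.1 and 43.4 CPM in cluster 1, so that it was the lower of the 2 on replicate 2.

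At e14.5 Pou4f3 was highest in cluster 3, with 139 CPM on replicate 1 and 228 on replicate 2. Cluster 4 had 105 CPM on replicate 2, from 5 neurons, and its single neuron on replicate 1 had none. Cluster 1 gave 11.9 and 11.03 CPM and cluster 2 gave 26.6 and 30.1 CPM, so that every plate of clusters 3 and 4 with at least 2 neurons lay above every plate of clusters 1 and 2. Cluster 3 held 88 of the 128 e14.5 UMIs (68.8%) in 20.1% of the neurons, with a UMI in 28 of 34 (82.4%, 65.5 to 93.2%). Clusters 3 and 4 exceeded clusters 1 and 2 by 2.83 on the log2 scale (SE 0.55, adjusted p = 0.0111), where 1.18% of genes were called. In the 32 lowest-scoring barcodes, which hold 3 neurons of cluster 3, the difference was 2.91 and not called (adjusted p = 0.245). Clusters 3 and 4 had 688 to 738 CPM of the summed proprioceptor markers and clusters 1 and 2 had 1727 to 2113, and the part of these markers in the result was not tested. The study proposes that clusters 3 and 4 hold TrkC neurons other than proprioceptors.

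At p12 Pou4f3 was highest in cluster 3, at 27.8 and 52.2 CPM on replicates 1 and 2, but the comparison runs across the plate sets. On the same plates cluster 2 had 23.1 and 0 CPM. On replicates 3 and 4 cluster 1 had 9.33 and 0, cluster 4 had 0 and 12.4 and cluster 5 had 6.78 and 0 CPM. Cluster 3 held 48 of the 73 p12 UMIs (65.8%) in 6 of its 17 neurons. Its log2 difference from the other clusters was 2.94 (SE 0.66, adjusted p = 0.00352), where 12.3% of genes were called. Against cluster 2 on replicates 1 and 2 alone it was 1.91 and not called (adjusted p = 0.193), and no call was made with DESeq2 (adjusted p = 0.673) or on leaving out replicate 2 (2.20, adjusted p = 0.123).

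**Figure D2:**
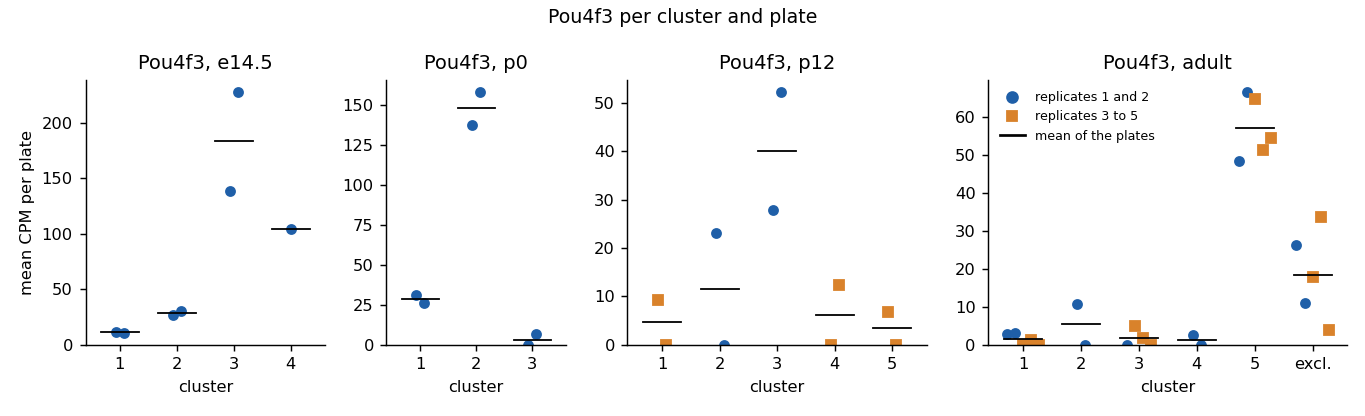
Mean CPM of Pou4f3 (y axis, linear and separate for each stage) in each cluster of e14.5, p0, p12 and adult neurons (x axis, numbers of the authors, excl. for neurons excluded from numbered clusters), with 1 point for each plate that held at least 2 neurons of the cluster and a line at their mean. Adult cluster 5 lay at 48.3 to 66.5 CPM on 5 plates against at most 10.8 CPM in adult clusters 1 to 4, p0 cluster 2 at 138 and 158 CPM and e14.5 cluster 3 at 139 and 228 CPM.

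In adult clusters 1 and 5, the only adult clusters with at least 2 neurons on every plate, the level of Pou4f1 differed between the plate sets. In cluster 1 it was 264 and 330 CPM on replicates 1 and 2 and 78.9, 80.7 and 69.9 CPM on replicates 3 to 5. In cluster 5 it was 269 and 350 CPM, and then 60.5, 53.2 and 52.7 CPM. The sets did not overlap in either cluster. Within clusters 1 and 5, Pou4f1 was higher in replicates 1 and 2 by 2.10 on the log2 scale (SE 0.13, adjusted p = 4.57e-09), in a comparison that called 20.1% of genes. The plate sets were drawn with this shift of Pou4f1 known, so its p-value is a description and no independent evidence. In the same comparison Isl1 was higher by 0.56 (SE 0.11, adjusted p = 0.00141), and no call was made on leaving out replicate 2 (0.40, adjusted p = 0.0848) or after thinning (0.70, adjusted p = 0.0637). Pou4f3 was not called (1.22, SE 0.49, adjusted p = 0.108). That value averages both clusters. In cluster 5 the sets overlapped, at 48.3 and 66.5 CPM against 64.7, 51.4 and 54.5 CPM. Cluster 1 held 6 UMIs of Pou4f3 in replicates 1 and 2 and 1 UMI in replicates 3 to 5.

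Between clusters 5 and 1 neither Pou4f1 (log2 difference -0.11, SE 0.46, adjusted p = 1.00) nor Isl1 (0.17, SE 0.17, adjusted p = 0.798) was called. Within replicates 1 and 2 the differences were -0.03 and 0.08, and within replicates 3 to 5 they were -0.38 and 0.27, with adjusted p from 0.430 to 0.998. Against the mean of clusters 1 to 4, cluster 5 gave -0.26 for Pou4f1 and -0.01 for Isl1 (adjusted p = 0.842 and 0.999), a comparison that crosses the plate sets. Within replicates 1 and 2 the values were 0.48 and 0.23, and within replicates 3 to 5 they were -0.23 and 0.14, with no call, so that the direction for Pou4f1 differed between the sets, a difference that was not tested.

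The remaining adult clusters were tied to plate sets. All 15 neurons of cluster 2 and all 28 of cluster 4 came from replicates 1 and 2, and 38 of the 41 of cluster 3 came from replicates 3 to 5. Pou4f1 was at 342 and 259 CPM in cluster 2, at 370 and 344 CPM in cluster 4 and at 60.0, 61.6, 49.2 and 77.3 CPM on the 4 plates with at least 2 neurons of cluster 3. The difference of cluster 3 from the other clusters was -1.89 (SE 0.53, adjusted p = 0.0839). It was called with DESeq2 (adjusted p = 0.0310), after thinning (-1.86, adjusted p = 0.0259) and with no filter on low counts (-1.83, adjusted p = 2.77e-12), and with the plate as a block it was -0.59 (adjusted p = 0.339). Within replicates 3 to 5 alone it was -0.10 (adjusted p = 0.896). Within replicates 1 and 2 alone it was -2.50 (adjusted p = 0.00731), from a single sum of the 2 neurons on replicate 2, so that this p takes the spread of cluster 3 from the other clusters, and all 3 neurons of cluster 3 on these plates sat in the 32 lowest-scoring barcodes. Cluster 4 gave 1.30 over all plates (adjusted p = 0.204, called with no filter at 1.21, adjusted p = 3.20e-05) and 0.50 with the plate as a block (adjusted p = 0.148). Within replicates 1 and 2 it gave 0.93 (adjusted p = 0.00528), against a mean of the other clusters that includes the 60.0 CPM of cluster 3. On these plates clusters 1, 2 and 5 lay at 259 to 350 CPM, beside 344 and 370 CPM in cluster 4, and the ranges overlapped. Cluster 2 gave 0.97 (adjusted p = 0.614), also called with no filter (0.92, adjusted p = 0.0246), and 0.13 with the plate as a block (adjusted p = 0.957). For Isl1 none of the 5 adult clusters was called against the others, with log2 differences from -0.28 to 0.48.

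**Figure D3:**
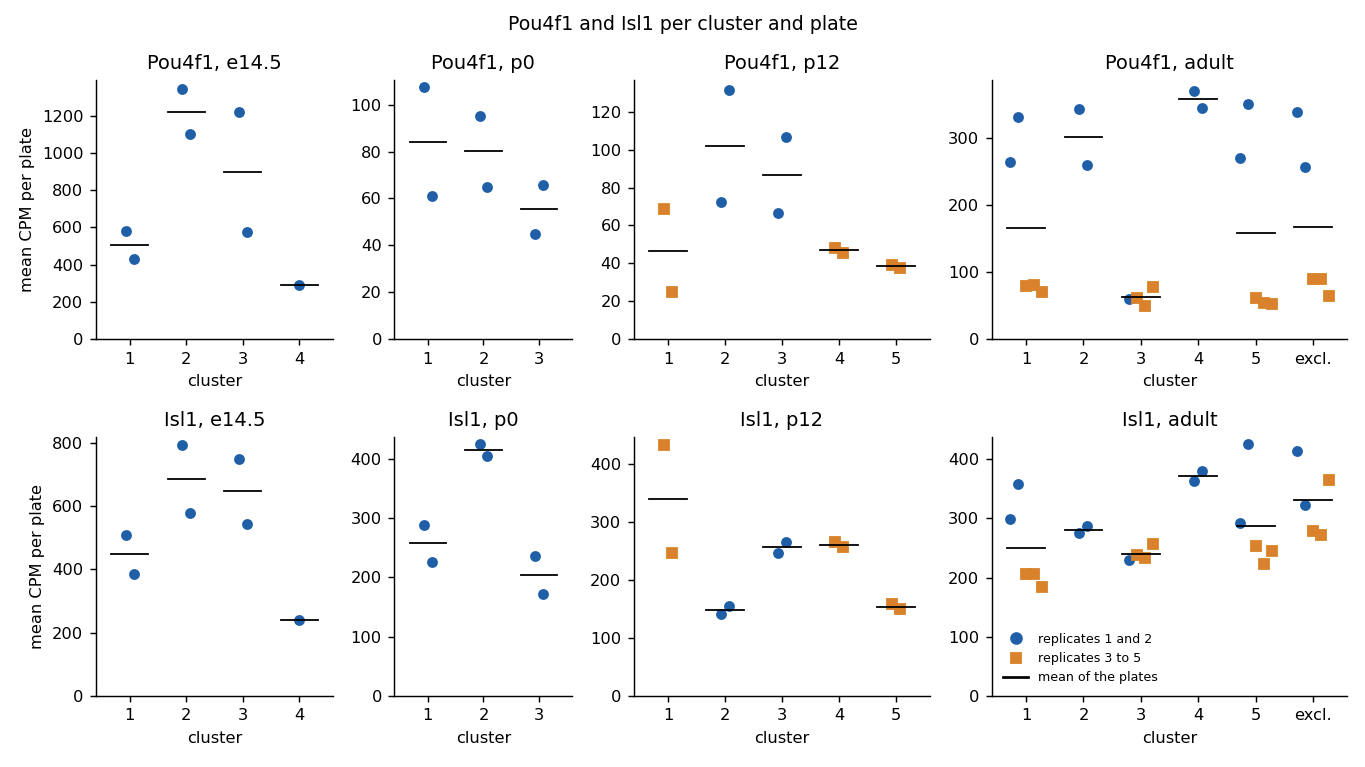
Mean CPM of Pou4f1 (upper row) and Isl1 (lower row) on linear scales in each cluster (x axis) of e14.5, p0, p12 and adult neurons, with 1 point for each plate that held at least 2 neurons of the cluster and a line at their mean. Within adult clusters 1 and 5, Pou4f1 lay at 264 to 350 CPM on replicates 1 and 2 and at 52.7 to 80.7 CPM on replicates 3 to 5.

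The plates with high Pou4f1 also shared a dependence on the well barcode. Each well carries 1 of 96 barcodes of 8 bases, the same set on every plate, so that a barcode marks a well and not a kind of neuron. Each barcode was given a score, the percentage of UMIs that came from 127 genes raised in adult replicates 1 and 2 over replicates 3 to 5, averaged over those 2 plates. The 4 genes described here were left out of the score. The score ran from 1.25 to 10.6%. The 3 barcodes of lowest score and the 3 of highest score, numbered in alphabetical order and written 5′ to 3′ as the well names give them, show the sequences involved.
Barcode 60, lowest score: ggctcaaa
Barcode 81, low score: tccgcttt
Barcode 83, low score: tcgatgca
Barcode 18, highest score: agtgagag
Barcode 49, high score: gataggag
Barcode 26, high score: catcctag
No part of a barcode is singled out by capitals. The 32 barcodes of lowest score held 1.56 a and 2.44 t on average and the 32 of highest score 2.41 a and 1.59 t, out of 8 bases. Over the 96 barcodes the number of a correlated with the score at Pearson's r = 0.36 and Spearman's rho = 0.36, a description, since the barcodes share the 2 plates that gave the score.

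In adult replicates 1 and 2, Pou4f1 was at 179 and 197 CPM in neurons of the 32 lowest-scoring barcodes, 309 and 295 CPM in the 32 middle ones and 413 and 387 CPM in the 32 highest, ratios of highest to lowest of 2.31 and 1.97. At e14.5 it was at 621 and 440 CPM, then 1365 and 898 CPM, then 1462 and 1006 CPM, ratios of 2.35 and 2.29. On the other 9 plates the ratio ran from 0.52 to 1.68, above 1 on 7 plates. For Isl1 it was 1.49 and 2.09 in adult replicates 1 and 2, 1.4 and 1.48 at e14.5 and 0.57 to 1.13 on the other 9 plates. Across the 96 barcodes, the level of Pou4f1 relative to its plate mean correlated with the score at r = 0.66 and rho = 0.70 on those 4 plates and at r = 0.20 and rho = 0.13 over 94 barcodes on the other 9. The score was set on the same adult plates, and the points share their libraries. The difference between the adult sets did not vanish in the lowest-scoring barcodes, where replicates 3 to 5 had 55.0, 94.8 and 65.1 CPM against 179 and 197 CPM.

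**Figure D4:**
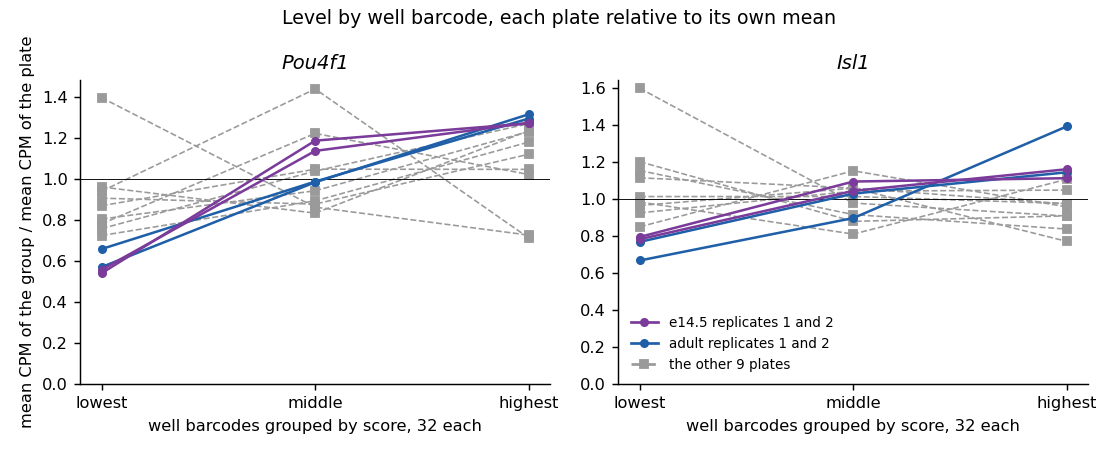
Mean CPM of Pou4f1 (left) and Isl1 (right) in neurons of the 32 lowest-scoring, 32 middle and 32 highest-scoring well barcodes (x axis), divided by the mean of the plate (y axis, linear), with 1 line for each plate. Pou4f1 rose by 1.97 to 2.35 times from the lowest to the highest group on both e14.5 plates and adult replicates 1 and 2, against ratios of 0.52 to 1.68 on the other 9 plates.

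The e14.5 clusters also differed in the barcodes of their neurons. Pou4f1 was at 578 and 432 CPM in cluster 1 and at 1341 and 1101 CPM in cluster 2, without overlap between plates. The log2 difference was -1.39 (SE 0.25, adjusted p = 0.00204), where 2.65% of genes were called. Of the 41 neurons of cluster 1, 38 lay in the 32 lowest-scoring barcodes and 0 in the 32 highest, and of the 88 neurons of cluster 2 these were 10 and 40. Within the lowest-scoring barcodes, Pou4f1 was at 578 CPM in cluster 1 (15 neurons) and 638 CPM in cluster 2 (7 neurons) on replicate 1, and at 401 CPM (23 neurons) and 1037 CPM (3 neurons) on replicate 2. In them the fit gave -0.68 and no call (adjusted p = 0.640), and DESeq2 on all neurons made no call either (adjusted p = 0.0993). Isl1 was at 509 and 387 CPM in cluster 1 and at 792 and 578 CPM in cluster 2, with a log2 difference of -0.62 (SE 0.21, adjusted p = 0.185). With the plate as a block that difference was called (-0.61, adjusted p = 0.00478), and in the lowest-scoring barcodes it was -0.29 (adjusted p = 0.985). Pou4f3 was not called between these clusters (-1.48, SE 0.66, adjusted p = 0.494).

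Cluster 3 of e14.5 had 1219 and 572 CPM of Pou4f1 and 749 and 544 CPM of Isl1, and cluster 4 had 291 and 239 CPM on its 1 plate with at least 2 neurons. Clusters 3 and 4 against 1 and 2 gave -0.66 for Pou4f1 (adjusted p = 0.416) and -0.56 for Isl1 (adjusted p = 0.416). In that fit the 1 sum of cluster 4, of 5 neurons, gives a cluster value with the same weight as cluster 3. The mean of cluster 3 alone, 896 CPM of Pou4f1 and 646 CPM of Isl1, lay between those of cluster 1 (505 and 448 CPM) and cluster 2 (1221 and 685 CPM), so that the negative values cannot be read as those of cluster 3. After thinning they were -0.42 for Pou4f1 and -0.20 for Isl1 (adjusted p = 0.598 and 0.794).

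**Figure D5:**
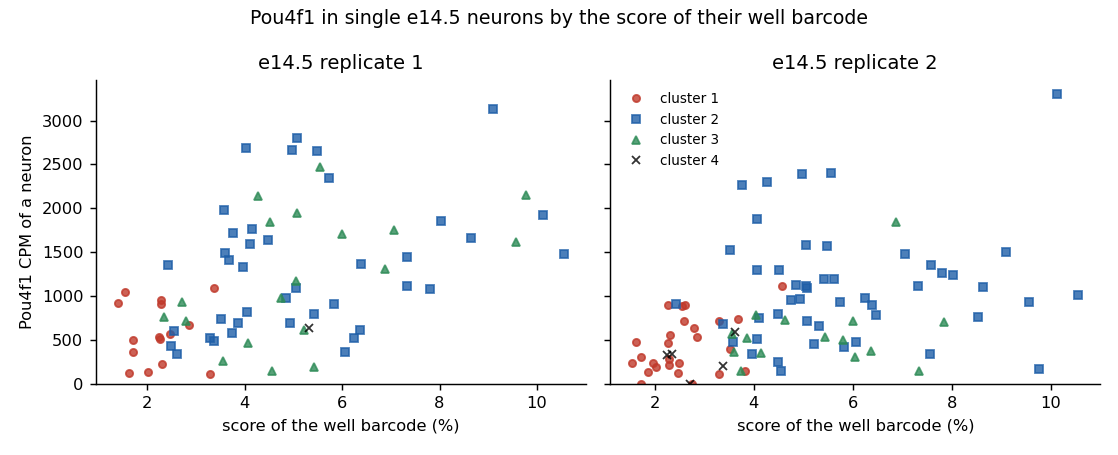
CPM of Pou4f1 in each e14.5 neuron (y axis, linear) against the score of its well barcode in percent (x axis), with 1 panel for each plate and 1 symbol for each cluster. Cluster 1, with 38 of 41 neurons in the 32 lowest-scoring barcodes, sits at the left of both panels, and cluster 2 spreads to the right with 40 of 88 neurons in the 32 highest-scoring barcodes.

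At p0 the clusters overlapped in Pou4f1, at 108 and 61.0 CPM in cluster 1, 95.3 and 65.1 CPM in cluster 2 and 44.8 and 65.8 CPM in cluster 3 (cluster 2 against the others 0.07, SE 0.31, adjusted p = 0.975). Isl1 was at 425 and 405 CPM in cluster 2 against 289 and 226 CPM in cluster 1 and 237 and 173 CPM in cluster 3. Its log2 difference was 0.81 (SE 0.16, adjusted p = 0.0109), and both plates of cluster 2 lay above all others. No call was made with DESeq2 (adjusted p = 0.121), after thinning (0.61, adjusted p = 0.670) or in the lowest-scoring barcodes (0.60, adjusted p = 0.240).

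At p12 Isl1 was at 434 and 247 CPM in cluster 1 on replicates 3 and 4, beside 265 and 258 CPM in cluster 4 and 158 and 151 CPM in cluster 5. Cluster 1 exceeded the other clusters by 0.86 (SE 0.17, adjusted p = 5.53e-04), where 22.7% of genes were called, and by 0.73 over clusters 4 and 5 on the same plates (adjusted p = 0.00715). Without replicate 3 it did so by 0.52 with no call (adjusted p = 0.265). Cluster 2 had 141 and 155 CPM on replicates 1 and 2, where cluster 3 had 247 and 266 CPM. It was lower than the other clusters by -0.86 (SE 0.21, adjusted p = 0.00498), where 21.0% of genes were called, and against cluster 3 alone by -0.84 with no call (adjusted p = 0.0970). Without replicate 1 its difference from the other clusters was -0.73, with no call (adjusted p = 0.143). Clusters 4 and 5, in comparisons that called 6.59 and 5.41% of genes, were not called for Isl1 (0.36 and -0.55, adjusted p = 0.239 and 0.203). Against clusters 1 and 4 on replicates 3 and 4 alone, cluster 5 was lower by -0.92 (adjusted p = 0.0114).

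Pou4f1 at p12 was at 72.3 and 132 CPM in cluster 2 and 66.6 and 107 CPM in cluster 3, and at 68.6 and 24.7 CPM in cluster 1, 48.2 and 45.5 CPM in cluster 4 and 39.2 and 37.6 CPM in cluster 5. No p12 cluster was called for Pou4f1, and the differences within each pair of plates ran from -0.16 to 0.13. Its levels on replicates 1 and 2 and on replicates 3 and 4 cannot be told apart from the clusters that these plates held.

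Over the 17 cluster means of the 4 stages, Pou4f1 and Isl1 correlated with each other at r = 0.73, Pou4f2 and Pou4f3 at r = 0.57, Pou4f1 and Pou4f2 at r = 0.43, Pou4f3 and Isl1 at r = 0.42, Pou4f1 and Pou4f3 at r = 0.35 and Pou4f2 and Isl1 at r = 0.20. Among 10053 other genes, the patterns most like that of Pou4f3 were those of Npy1r, a neuropeptide Y receptor (r = 0.89), Pcdh17, a protocadherin (r = 0.87), Neto2 (r = 0.81), Pttg1ip (r = 0.80) and Ppp1r1c (r = 0.78). For Pou4f1 they were Gnb1, a G-protein subunit, Arglu1, Twf1, Rdh13 and Nmt2, an N-myristoyltransferase (r from 0.96 to 0.97). For Isl1 they were Zbtb46, Agps, Pnisr, Rpl26-ps2 and Bloc1s2-ps (r from 0.84 to 0.86), the last 2 of which are pseudogenes whose counts may include reads of their parent genes. Those of Pou4f2 were Aldh18a1, Rab11fip4, Ebf3, Ice1 and Fam175a (r from 0.82 to 0.85), on a pattern that rests on 47 UMIs. By Spearman's rho Npy1r and Pcdh17 stayed at ranks 1 and 2 for Pou4f3 and the other 3 moved to ranks 8 to 21, and all 5 genes of Pou4f1 moved to ranks 7 to 28. For Isl1 Pnisr ranked 1 and the other 4 ranked 16 to 79, with Zbtb46 at 42 and Agps at 79. For Pou4f2 Aldh18a1 ranked 3 and the other 4 ranked 7 to 246. Clusters of 1 stage share plates and depth, and these values are descriptions without a test. The clusters highest in Pou4f1, those of e14.5 and adult clusters 2 and 4, came only from plates with the barcode dependence. The genes most like Pou4f1, and its correlation with Isl1, therefore cannot be told apart from the plate sets.

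Genes of the same families and of early neurogenesis were counted from lists and set beside the medians of all genes tested. Of 9 other POU genes 3 were tested, and 0 of 3 were called from e14.5 to p0 (median log2 difference -0.39, all genes 0.01). Pou2f2, an octamer-binding factor, fell by 2.28 from p0 to p12 (adjusted p = 0.0425) and rose by 2.07 from p12 to adult (adjusted p = 0.0352), on means of 7.13, 1.25 and 6.42 CPM and 6 UMIs at p12. The first call was lost without either p0 plate and without p12 replicate 2 or 4, and the second without p12 replicate 2 or 4 and without any 1 of adult replicates 1, 2, 4 and 5. Pou2f1, also an octamer-binding factor, was higher in the adult than at p0 by 1.06 (adjusted p = 0.0415), a call lost with DESeq2 and on leaving out any plate of these stages but adult replicate 5. In each of these 3 comparisons 1 of 3 was called, beside 18.1, 14.1 and 34.4% of all genes. The medians for these genes were -0.07 from p0 to p12, beside 0.02 over all genes, and 0.15 from p12 to adult, beside 0.04.

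Of 21 LIM-homeodomain, LIM-only and LIM cofactor genes, 9 were tested. From e14.5 to p0, where 27.8% of all genes were called, 2 of the 9 rose and 3 fell (median -0.53). Lmo2, a LIM-only protein, had 1.52 ± 2.15 CPM (SD, n = 2), from 3 UMIs, at e14.5 and rose to 37.6 ± 0.0444 CPM (n = 2) at p0 (adjusted p = 7.01e-04). Lmo1, of the same class, fell by 1.76 (adjusted p = 0.00547) and Ssbp3, which binds the LIM cofactor Ldb1, fell by 1.496 (adjusted p = 0.00258). From p0 to p12 Ssbp4 was the 1 of 9 that was called, beside 18.1% of all genes, and fell by 1.52 (adjusted p = 0.00205, median of the 9 genes 0.00). From p12 to adult Ssbp3 was the 1 of 9, beside 14.1% of all genes, and rose by 1.03 (adjusted p = 0.00551, median -0.04). Neither count was above the share of all genes. Between p0 and adult, where 34.4% of all genes were called, Lmo2 fell by 1.81, Ssbp4 fell by 1.78 and Lmo4 rose by 0.91 (adjusted p = 0.00280, 1.37e-04 and 0.00172, median 0.18, all genes 0.03). The calls on Lmo2 were lost after thinning, that on Lmo1 after thinning and without p0 replicate 1, that on Ssbp4 from p0 to p12 after thinning, and that on Ssbp3 from p12 to adult with p12 replicates 1 and 2 alone. In the lowest-scoring barcodes the calls on Lmo1 and on Ssbp4 from p0 to p12 were lost as well.

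Of 20 genes of early sensory neurogenesis, 9 were tested. From e14.5 to p0, 0 rose and 4 of 9 fell, with a median of -1.26, beside the 27.8% of all genes called in either direction. Sox11, an HMG-box factor of young neurons, went from 1185 ± 29.6 CPM (SD, n = 2) to 45.0 ± 5.79 CPM (n = 2) and fell by 4.74 on the log2 scale (adjusted p = 6.66e-06). Dcx, a microtubule-binding protein of migrating neurons, fell by 2.51 (adjusted p = 8.51e-05) to 40.1 CPM, and then to 0.266 CPM at p12 (adjusted p = 2.22e-06), where 1 UMI remained. Prrxl1, a homeodomain protein of sensory neurons, had 15.6 and 6.74 CPM at e14.5 and 0 UMIs at p0 (adjusted p = 0.0320). From p0 to p12, 0 rose and 3 of 9 fell (median -0.63, 18.1% of all genes called), among them Sox4 by 2.96 (adjusted p = 4.38e-05) and Sox11 by 2.03 (adjusted p = 0.00281). From p12 to adult 0 of 9 were called (median 0.27, 14.1% of all genes called). Between p0 and adult 1 of 9 rose and 4 fell (median -0.49, 34.4% of all genes called). The 1 was Prrxl1, at 0 UMIs on both p0 plates and 4.35 ± 3.89 CPM (SD, n = 5) in the adult (adjusted p = 0.0440). Among the 4, Sox4 fell by 2.99 (adjusted p = 3.71e-06), and Dcx went to 2 UMIs in the adult neurons (adjusted p = 6.97e-08). The call on Prrxl1 from e14.5 to p0 was lost without any 1 of these plates, and that between p0 and adult without either p0 plate and without adult replicate 3 or 4. The call on Sox4 from p0 to p12 was lost when wells with at least 2000 genes were used. Those on Sox11 and Dcx held under every alternative run for them.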

How the data were processed

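The data are UMI counts per gene and well, deposited by the authors, who aligned Plate-seq reads with STAR to the mouse genome (mm10, GRCm38), demultiplexed them by well barcode and collapsed them by UMI. The aligner's version is not given in the sources used here. Neurons, clusters and exclusions are those of the authors' annotation, which kept 586 of 1248 wells on 13 plates.

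Raw counts were summed per plate, and per cluster and plate where at least 2 neurons were present. Sums were filtered with filterByExpr, scaled by TMM and tested with edgeR 4.0.16 (R 4.3.3, limma 3.58.1) by the quasi-likelihood F test with Benjamini-Hochberg adjustment over all genes tested and calls at an adjusted p under 0.05. The fits were tested on simulated data first. CPM levels are means over neurons. Shares of neurons were compared after thinning to 7000 UMIs (4000 as an alternative), with 20 neurons under 7000 left out, and carry exact binomial 95% intervals. Intervals, ratios and the limit that a count of 0 allows (3 counts) cover counting error only. Python 3.11.15 with numpy 2.4.6, pandas 2.3.3, scipy 1.17.1 and matplotlib 3.10.9 was used for the rest.

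The barcode score is the percentage of UMIs from 127 genes with a log2 difference above 2 and an adjusted p under 0.01 between adult replicates 1 and 2 and replicates 3 to 5 within clusters 1 and 5. It was averaged per barcode over adult replicates 1 and 2, in wells with at least 2000 genes, and the 96 barcodes were split into 3 groups of 32.

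The members and the gene lists were chosen with earlier results of these data known. The text names the members, up to 3 called genes with the largest change per list and comparison, and the 5 genes whose log2(CPM + 1) over the 17 cluster means correlated best with each member. Same-numbered samples within a stage are the same plate, so clusters were also compared with the plate as a block. Other alternatives were DESeq2 1.42.0, its size factors used in edgeR, all genes without a minimum count, thinned neurons, leaving out each replicate, other minimum numbers of neurons per sum, all wells with at least 2000 genes, single sets of plates, e14.5 clusters 1 and 2 alone, and the 32 lowest-scoring barcodes. The comparison of adult with p0, the sets of plates at p12 and the lowest-scoring barcodes in adult and p0 clusters were added after the data were seen. Pou4f2 was too sparse for a test. Strand use in counting is not given in the sources used here.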

Additional observations from a re-analysis of the deposited data

Results flagged for a closer look

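UMIs of Pou4f1 and Isl1 were also found in wells that no comparison above uses. The 111 wells with fewer than 2000 detected genes held 100175 UMIs in all, of which 20 were of Pou4f1 and 47 of Isl1. These come to 199.7 and 469 CPM of the summed wells. Both counts exceed 3 UMIs, the limit that a count of 0 allows (29.9 CPM here), which is a floor and not a test. At e14.5, 22 such wells with 50706 UMIs held 18 of the Pou4f1 UMIs. All 111 wells together held 2 UMIs of Pou4f2 and 1 of Pou4f3.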

How the results depend on the processing

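Over 70 results on the 4 genes and 835 alternative settings, 784 kept their side of the threshold and, where called, their direction, 23 lost a call, 24 gained one, 1 turned and 3 values without a test moved. In 60 of the 784 the sign changed with no call on either side. The 20 results on named genes of the lists, 1 for each gene and comparison, lost a call in 45 of 265 settings. The causes were not tested.

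Pou4f3 turned between p12 and adult, from -1.19 with p12 replicates 1 and 2 alone to 1.56 with replicates 3 and 4 alone, both called. From p0 to p12 it was called with p12 replicates 3 and 4 alone (-3.33), with no filter (-1.53), in the lowest-scoring barcodes (-3.00) and without p12 replicate 2, with a leave-one-out range of -2.24 to -1.08. In the lowest-scoring barcodes Pou4f3 was at 0, 43.0, 0 and 0 CPM on p12 replicates 1 to 4, so the -3.00 rests on 1 p12 plate. The p0 plates had 77.2 and 91.8 CPM there. Between p0 and adult Pou4f3 lost its call after thinning (-1.44), with adult replicates 1 and 2 alone (-1.66) and without either p0 plate (leave-one-out -1.85 to -1.72). In p12 cluster 3 it lost it with DESeq2 (2.87), on replicates 1 and 2 alone (1.91) and without replicate 2 (leave-one-out 2.20 to 4.76), and in e14.5 clusters 3 and 4 in the lowest-scoring barcodes (2.91). Leaving out a p0 plate gave 2.94 and 5.66 in p0 cluster 2, with no residual degrees of freedom and so no test, and the second rests on a cluster at 0 UMIs.

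Pou4f1 became called from p12 to adult with DESeq2 (1.27), no filter (1.32), thinning (1.85) or adult replicates 1 and 2 alone (2.24), from p0 to adult with no filter (1.03) or those plates alone (1.92), and with no filter in e14.5 clusters 3 and 4 (-0.80) and adult clusters 2 (0.92), 3 (-1.83) and 4 (1.21). Adult cluster 3 was also called with DESeq2 (-1.86) and after thinning (-1.86), and clusters 3 (-2.50) and 4 (0.93) within replicates 1 and 2. Between e14.5 clusters 1 and 2 it lost its call with DESeq2 (-1.35) and in the lowest-scoring barcodes (-0.68).

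Isl1 lost its call from e14.5 to p0 in the lowest-scoring barcodes (-0.67) and without e14.5 replicate 1 or either p0 plate (leave-one-out -1.31 to -0.84), and gained one from p0 to adult in those barcodes (-0.61). Between adult plate sets it lost it after thinning (0.70) and without replicate 2 (leave-one-out 0.40 to 0.69). In p0 cluster 2 it lost it with DESeq2 (0.82), thinning (0.61) and in the lowest-scoring barcodes (0.60), with 0.69 and 1.03 on leaving out a plate. In p12 cluster 1 the leave-one-out range was 0.52 to 1.26, with no call without replicate 3, and in cluster 2 -0.96 to -0.73, with no call without replicate 1, after thinning (-0.95) or on replicates 1 and 2 alone (-0.84). Between e14.5 clusters 1 and 2 it was called with no filter (-0.70).

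With the plate as a replicate block, Isl1 between e14.5 clusters 1 and 2 was called (-0.61, adjusted p = 0.00478), and no other call on the 4 genes changed. The block could not be fitted at p12, where clusters 2 and 3 share no plate with clusters 1, 4 and 5, and plates are not paired between stages. Thinning left Pou4f3 too sparse to test in p0, p12 and adult clusters, and Pou4f1 in p0 and p12 clusters.

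Counts of called genes moved by over 1.5 times in every comparison. They were 3314 (1455 to 4114 over the alternatives) from e14.5 to p0, 2162 (715 to 3102) from p0 to p12, 1687 (529 to 3070) from p12 to adult and 4108 (1609 to 5284) from p0 to adult. Adult cluster 1 called 419 (65 to 930), cluster 2 called 2 (1 to 196), cluster 3 called 7 (0 to 521), cluster 4 called 201 (35 to 504), cluster 5 called 297 (31 to 547) and cluster 5 against 1 called 351 (35 to 712). The plate sets called 1405 (327 to 1412), cluster 5 against 1 called 201 (21 to 352) within replicates 1 and 2 and 294 (24 to 451) within replicates 3 to 5, and their difference 1 (0 to 43). At p12 clusters 1 to 5 called 1410 (391 to 1627), 1301 (124 to 1314), 763 (124 to 843), 409 (20 to 736) and 336 (13 to 555). Cluster 2 of p0 called 61 (3 to 161), e14.5 cluster 1 against 2 called 130 (10 to 173) and clusters 3 and 4 called 58 (9 to 114). The settings also differed in the genes tested. The adult cluster fit tested 7370 genes, 2150 after thinning and 23410 with no filter. A lower count need not be a lower share. In p12 cluster 1 thinning called 394 genes, 26% of those tested, against 22.7% in the main fit.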
